A study of Mus musculus with 8 samples.

Results

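Apoptosis is the programmed death of a cell by its own proteases, and 35 mouse genes of its core machinery were followed here. The cells were cultured oligodendrocyte progenitors, given Cre to delete the histone methyltransferase genes Ehmt1 and Ehmt2. They form a list of gene names, and the rule for membership uses no measured value: 12 of the BCL2 family, 11 caspases with their activators and inhibitors, 6 of death receptor signalling and 6 effectors that act late. Of the 35, 34 had a row among the 24155 genes counted and 32 had enough counts to be tested with 18102 genes in all. Bik and Birc3 were too low to test, and the expression of Tnfsf10 was not analysed here.

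In the mitochondrial route, BH3-only proteins sense damage and release the pore-forming BCL2 relatives from the survival members of that family. Cytochrome c then leaves mitochondria and assembles with Apaf1 into the apoptosome, which activates caspase-9, whereas the death receptor route activates caspase-8 through Fadd and joins the mitochondrial route through Bid. Newly formed oligodendrocytes are known to die in large numbers in the developing brain, where survival depends on growth factors such as PDGF.

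Progenitors were immunopanned from pups of both sexes at postnatal day 7 and grown with PDGF-AA and bFGF. Every culture carried floxed alleles of both genes (Ehmt1fl/fl;Ehmt2fl/fl), so controls and treated cells shared the floxed background. Control cultures received an adenovirus for red fluorescent protein alone (Ad-RFP), and cultures labelled cKO received one that also carries Cre (Ad-RFP-iCre), 10 infectious units per cell in both cases; the virus was left on for 6 hours, and cells were harvested at 72 hours. Each group had 4 libraries, from batches 1, 3, 4 and 6, and each batch held 1 control and 1 cKO library. The labels do not say whether batches came from separate animals or pools. The main p-values weigh the difference within a batch against its spread over these batches, which may be partly technical. No cells without floxed alleles that received Cre were analysed here. The effects of Cre virus and of deleting both genes cannot be told apart.

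Libraries held 43542742 to 65374488 estimated counts. Levels are given as CPM, counts relative to the TMM-scaled size of each library. Ehmt1, the enzyme also called GLP, was at 88.8 to 100.2 CPM in control and at 36.1, 41.9, 42.4 and 45.7 CPM in cKO batches 1, 3, 4 and 6. Ehmt2, also called G9a, was at 154, 178, 196 and 181 CPM in control and at 51.7, 55.5, 64.5 and 62.1 CPM in cKO. Both targeted genes were lower in every cKO library than in any control library, as the labels say. Some RNA of both remained, 43.4% of the control level for Ehmt1 and 32.9% for Ehmt2. Whether it came from cells that kept the genes was not tested, and the proteins were not analysed here. Progenitor markers fixed for this comparison were all present, with 10 of 10 listed and summed levels of 9359 to 14030 CPM in control and 8640 to 12740 CPM in cKO. That sum was lower in cKO in 4 of 4 pairs, though by gene 1 of the 10 rose, 2 fell and 7 gave no call. Its fall did not come from the same genes in each batch. Gpr17 went from 5377 to 4286 CPM in batch 4 and from 3905 to 2879 CPM in batch 6. In batches 1 and 3 it was higher in cKO (102 to 160 and 488 to 524 CPM). For 10 markers of myelinating oligodendrocytes the sum was higher in 4 of 4 pairs. It was 273 to 1674 CPM in control and 349 to 2725 CPM in cKO. Of the 9 tested, 7 rose and 2 gave no call. Mitochondrially encoded genes took 2.42% to 3.24% of counts in control and 3.0% to 3.63% in cKO, with the cKO share above its control in every batch. A ribosomal RNA gene took 7.91% to 10.1% of counts in control and 6.61% to 9.13% in cKO, lower in cKO in every batch. Sums over 10 of 10 astrocyte markers (1257 to 3073 CPM in control, 1166 to 2822 CPM in cKO) were lower in 4 of 4 pairs. By gene, 4 of the 10 fell and 2 rose (Gfap by 0.86 ± 0.17 and Aqp4 by 0.62 ± 0.13, log2). Sums over 14 of 15 neuron markers (978 to 1675 CPM in control, 1068 to 1717 CPM in cKO) were higher in 4 of 4 pairs. Map2 made up most of these sums, at 740 to 1251 CPM in control, and differed by -0.005 ± 0.030. Of the 12 neuron markers tested, 6 rose, 0 fell and 6 gave no call. The largest rises were in Stmn2 (2.70 ± 0.37, from 0.146 to 0.991 CPM) and Snap25 (1.52 ± 0.09, from 7.01 to 19.9 CPM). The part of these shifts in the results was not tested. In such bulk RNA, fewer cells of a type and less RNA per cell cannot be told apart.

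Levels of the members differed far more from gene to gene than between conditions. Per kilobase of exon, Parp1 led with 67.8 ± 12.2 CPM per kb in control libraries, followed by the survival gene Mcl1 (43.0 ± 4.49), the pore former Bak1 (35.8 ± 1.69) and the TNF receptor Tnfrsf1a (21.5 ± 4.20; all SD, n = 4). In the middle stood components of the mitochondrial route, with Cycs, which encodes cytochrome c, at 10.0 ± 2.20 CPM per kb, Diablo at 8.47 ± 0.38 and Apaf1 at 7.01 ± 2.53. The initiator caspase gene Casp9 (3.93 ± 0.64 CPM per kb) stood above Casp8 (0.408 ± 0.27), the initiator of the death receptor route. The lowest were the BH3-only genes Hrk (0.102 ± 0.023 CPM per kb) and Bik (0.043 ± 0.020) and the inhibitor gene Birc3 (0.038 ± 0.020). Bik had 1 to 7 estimated counts per library and Birc3 2 to 16, so no difference could be seen at this depth in either gene.

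**Figure D1:**
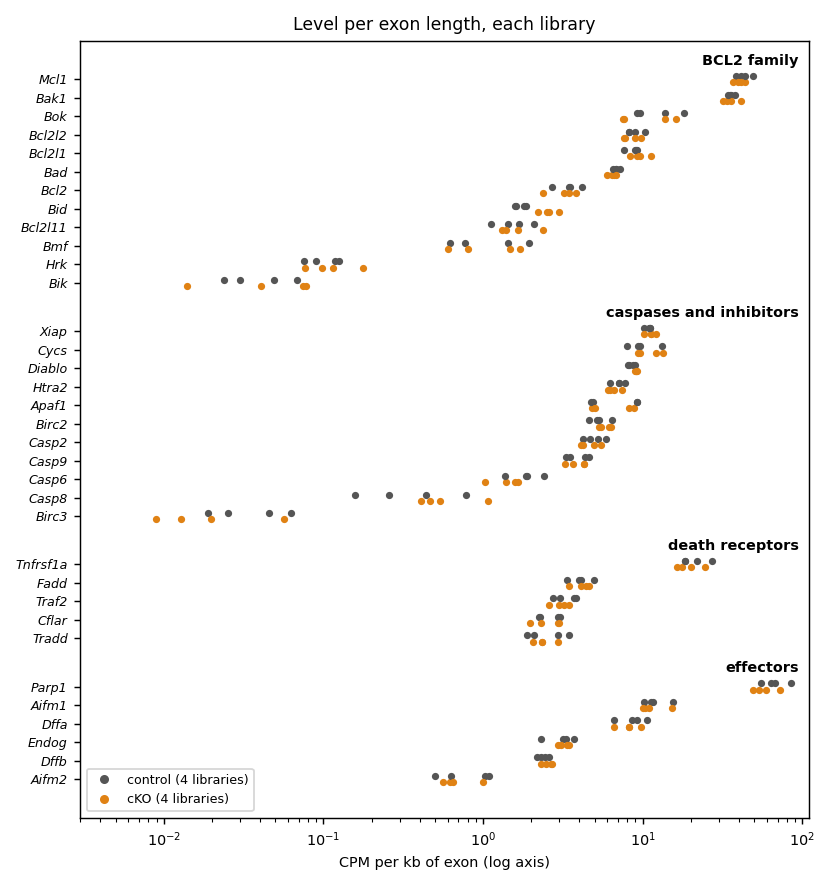
Level per exon length (CPM per kb of exon, log axis) of the 34 members with a row, in each of the 4 control and 4 cKO libraries. Parp1, Mcl1 and Bak1 lie highest, Hrk, Bik and Birc3 lowest, and control and cKO points of most genes lie on top of each other.

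Members changed in cKO about as often as all genes did, and the changes went both ways. With batch as a block in edgeR's quasi-likelihood test, 2 of 32 members rose (Bid and Casp8), 4 fell (Bok, Casp6, Tnfrsf1a and Parp1) and 26 did not pass a Benjamini-Hochberg adjusted p of 0.05 over all 18102 genes. The share of members past the threshold, 18.8%, lay near the 20.5% of all genes tested; 10.0% of all genes were higher in cKO and 10.4% lower. The median log2 fold change of cKO over control was -0.045 over the 32 members and -0.0066 over all genes, and the median size of the change was 0.094 and 0.116. By role, 2 of 11 BCL2 family genes, 2 of 10 caspases and partners, 1 of 5 death receptor genes and 1 of 6 effectors passed. Without the block, 0 of 32 passed in edgeR and 1 (Bid) lay under an unadjusted p of 0.05, where 4.93% of all genes did; DESeq2 without the block called Bid alone. Of the 6 called members, Bid had an adjusted p of 0.373 in edgeR without the block and the other 5 had 0.9999. Bid, Casp6 and Parp1 passed in all 11 other settings with the block, among them those that left out 1 batch each. Casp8, Bok and Tnfrsf1a did not, and without batch 4 or batch 6 the calls numbered 3. Over all genes, 2367, 2102, 2118 and 3432 passed without batch 1, 3, 4 and 6, against 3706 with all batches.

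**Figure D2:**
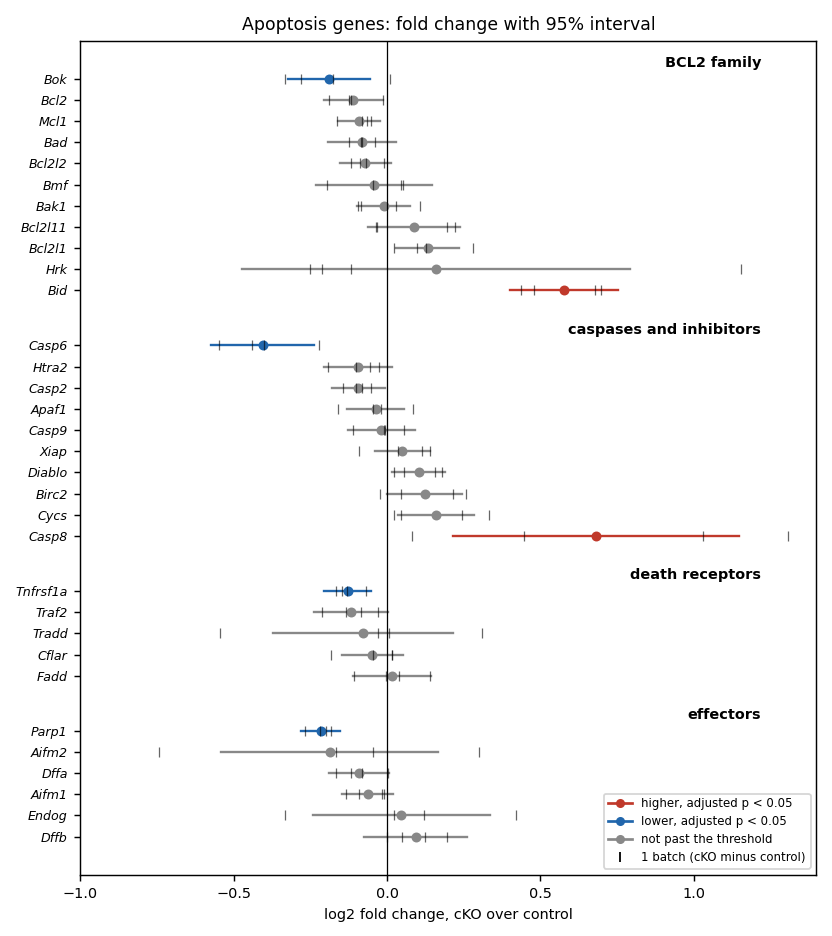
Log2 fold change of cKO over control (dot) with its 95% interval (line) for the 32 tested members, by role, with the difference in each of the 4 batches as a tick. Bid (0.58) and Casp8 (0.68) lie to the right, Casp6 (-0.41), Parp1 (-0.22), Bok (-0.19) and Tnfrsf1a (-0.13) to the left, and the ticks of Casp8 are spread widely.

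The sequence just upstream of the start of the 4 most changed members is shown to let their promoters be compared (RefSeq starts, GRCm38.p6, the build also called mm10; 5′ to 3′ on the strand of the gene). Capitals mark the motifs searched on both strands: the GC box GGGCGG, the CCAAT box, the TATA box TATAAA and the E-box CACGTG. No base was shared by 2 matches in the 4 sequences.
Bid: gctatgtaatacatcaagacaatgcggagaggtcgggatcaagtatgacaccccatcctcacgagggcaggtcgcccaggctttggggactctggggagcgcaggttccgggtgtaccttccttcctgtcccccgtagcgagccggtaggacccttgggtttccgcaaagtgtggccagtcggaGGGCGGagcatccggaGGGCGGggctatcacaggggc
Casp8: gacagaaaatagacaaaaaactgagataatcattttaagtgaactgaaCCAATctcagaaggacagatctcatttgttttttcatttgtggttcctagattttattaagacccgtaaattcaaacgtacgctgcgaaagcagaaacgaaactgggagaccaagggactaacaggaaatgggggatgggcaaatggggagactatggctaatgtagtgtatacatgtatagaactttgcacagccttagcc
Casp6: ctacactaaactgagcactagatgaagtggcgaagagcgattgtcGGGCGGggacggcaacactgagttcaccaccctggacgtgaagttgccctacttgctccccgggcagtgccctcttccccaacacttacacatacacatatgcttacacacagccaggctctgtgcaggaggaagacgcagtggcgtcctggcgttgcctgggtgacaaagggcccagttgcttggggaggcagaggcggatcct
Parp1: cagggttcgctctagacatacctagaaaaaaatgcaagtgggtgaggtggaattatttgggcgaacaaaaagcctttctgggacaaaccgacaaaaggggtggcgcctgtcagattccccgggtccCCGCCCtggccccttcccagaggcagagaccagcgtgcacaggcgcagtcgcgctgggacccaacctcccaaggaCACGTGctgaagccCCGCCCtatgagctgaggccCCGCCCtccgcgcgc
They lie at chr6:120916854-120917074 (minus strand, Bid), chr1:58802252-58802501 (plus, Casp8), chr3:129901165-129901414 (plus, Casp6) and chr1:180568641-180568890 (plus, Parp1). In the Bid window, 29 bases next to the RefSeq start are annotated exon and are not printed. The Casp8 window is intronic in GENCODE M21, where longer transcripts of the gene start further upstream, and the printed parts of the other 3 lie outside the GENCODE model of their own gene. In the full 250 bases, Bid and Parp1 each held 3 GC boxes, Casp6 held 1 and Casp8 held none. Casp8 was also the poorest of them in CpG, with 5 CpG dinucleotides and 39.6% GC, against 18 and 63.6% for Bid, 16 and 61.6% for Parp1, and 11 and 58.4% for Casp6. RefSeq windows were found for 32 of the 35 named genes, Birc3 and Tnfsf10 included and Bik, Htra2 and Tradd not, so this set is not that of the tested members. Among their 41 windows, the median was 13 CpG, against 6 over 32851 windows of all genes. A GC box stood in 53.7% of the member windows and 32.7% of all windows, a CCAAT box in 29.3% and 33.9%, a TATA box in 4.88% and 12.4%, and an E-box in 2.44% and 6.02%. These matches are letters in a window and say nothing about binding.

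The BCL2 family is read from its survival members. Mcl1 blocks the pore formers and is short-lived, and it was the most abundant of the 4 survival genes. Its level was 167, 131, 141 and 148 CPM in control batches 1, 3, 4 and 6, and 149.6, 127, 135 and 140.4 CPM in cKO. Each cKO library lay below its own control, but the groups overlapped, and the change of -0.090 ± 0.031 (log2, SE) did not pass (edgeR adjusted p = 0.063). Bcl2, the founding survival gene, was at 31.7, 31.8, 24.8 and 38.0 CPM in control and 29.2, 31.6, 21.8 and 34.9 CPM in cKO. It too was lower within each batch with overlapping groups, by -0.11 ± 0.04 (adjusted p = 0.103 in edgeR). Bcl2l1, which encodes BCL-XL, went the other way, at 42.3, 35.1, 41.4 and 41.1 CPM in control and 51.4, 38.4, 42.1 and 44.0 CPM in cKO. Control batch 3 stood below the other 3 control libraries and cKO batch 1 above the other cKO ones, and the difference of 0.13 ± 0.05 missed the threshold (edgeR adjusted p = 0.067; 0.047 with upper-quartile scaling). Bcl2l2, encoding BCL-W, differed by -0.070 ± 0.038 (adjusted p = 0.224). For these 4 genes the 95% intervals lay between -0.21 and 0.23 on the log2 scale.

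The pore formers differed in how they varied. Bak1, which permeabilises the outer mitochondrial membrane, differed by -0.011 ± 0.039, with a 95% interval from -0.097 to 0.076; its sign turned with upper-quartile scaling and without batch 1 or 6. Bok, a relative regulated mainly by its protein stability (chromosome 1, 93685660 to 93695764, mm10, plus strand), was at 25.2, 33.4, 16.8 and 17.7 CPM in control and 25.4, 29.6, 13.8 and 14.0 CPM in cKO. Batches 4 and 6 were the low ones in both groups, and batch 1 showed no fall. Bok fell by 0.19 ± 0.06 on the log2 scale, to 87.7% of control (edgeR adjusted p = 0.0485). That call was lost in 9 of the 11 other settings with the block, with adjusted p-values from 0.0506 to 0.206, and kept with RLE scaling and without batch 1.

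Among the tested BH3-only members, only Bid passed the threshold. Pmaip1, a BH3-only gene outside the members, also rose in the same fit (0.49 ± 0.07, log2). Bid is cleaved by caspase-8 and carries the death receptor signal to mitochondria (chromosome 6, 120891930 to 120916853, minus strand, protein-coding). It was at 6.59, 6.4, 5.66 and 5.74 CPM in control batches 1, 3, 4 and 6, and at 10.6, 8.93, 9.21 and 7.78 CPM in cKO. Every cKO library lay above every control library, which held for 2 of 32 members (Bid and Diablo) with both above control, and for 3.68% of all genes in either direction and 2.4% with cKO above. Bid rose by 0.58 ± 0.08 (95% interval 0.40 to 0.75), to 149% of control (edgeR adjusted p = 0.000874). Leaving out 1 batch at a time gave 0.54 to 0.62. Exons of Bid share 628 bases with Bcl2l13 on the opposite strand, and it is unknown here if reads were assigned by strand. Bcl2l13 is far more abundant and fell in the same fit, from 163 to 150.1 CPM (-0.12 ± 0.03, edgeR adjusted p = 0.0151).

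The other tested BH3-only members gave no call. Bad, an inhibitor of BCL-XL controlled by phosphorylation, differed by -0.082 ± 0.050 and Bmf, tied to the cytoskeleton, by -0.043 ± 0.085. Bcl2l11, which encodes BIM and is induced when growth factors are withdrawn, differed by 0.088 ± 0.067 (adjusted p = 0.398 in edgeR). Hrk was at under 1.1 CPM in every library, and its interval, from -0.47 to 0.79, was the widest of the 32.

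Among caspases and their partners, Casp6 fell, Casp8 rose and the other 8 tested genes gave no call. Casp6, an executioner caspase that cleaves lamins (chromosome 3, 129901425 to 129914103, plus strand), was at 10.3, 10.5, 7.65 and 13.5 CPM in control and at 8.86, 7.75, 5.77 and 9.23 CPM in cKO. The cKO value was the lower one in each batch, while batch 4 was lowest in both groups, so the groups overlapped. Casp6 fell by 0.41 ± 0.08 on the log2 scale, to 75.5% of control (edgeR adjusted p = 0.00444). Casp8, the initiator at death receptors (chromosome 1, 58795374 to 58847503, plus strand), was at 2.26, 1.27, 0.745 and 0.454 CPM in control and 3.08, 1.34, 1.56 and 1.18 CPM in cKO. Batch 1 was the highest in both groups, batch 3 hardly differed, and the gap was widest in batches 4 and 6. Casp8 rose by 0.68 ± 0.21 (95% interval 0.22 to 1.15; edgeR adjusted p = 0.0434). The call did not hold without batch 1, 4 or 6 (adjusted p = 0.089, 0.162 and 0.110) or in DESeq2 with the block (0.056). Microglia, which could be in such cultures, gave few reads: 4 of 12 of their markers were listed, with sums of 0.761 to 1.75 CPM in control and 1.32 to 3.26 CPM in cKO, higher in 4 of 4 pairs; the other 8 markers were not analysed here. The part of such cells in the Casp8 level was not tested.

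Cflar, the caspase-8-like inhibitor that shares the receptor complex with Casp8, lies 36.5 kb before it on the same strand of chromosome 1. Its difference was -0.048 ± 0.046, with a 95% interval from -0.15 to 0.053 (edgeR adjusted p = 0.512). Fas, the death receptor upstream of both, rose in the same fit by 0.69 ± 0.12, with batch 1 again highest, at 7.35 and 10.1 CPM, against 1.62 to 3.49 CPM in the other 6 libraries. The initiators of the mitochondrial and damage routes changed little. Casp9, activated on the apoptosome, differed by -0.019 ± 0.050 with an interval from -0.13 to 0.090. Casp2, an initiator linked to DNA damage, was at 37.1, 41.6, 29.9 and 33.1 CPM in control and 35.1, 38.8, 28.8 and 30.0 CPM in cKO. It was lower in each batch with overlapping groups, and the change of -0.094 ± 0.039 did not pass (edgeR adjusted p = 0.115).

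Cycs was at 44.7, 32.9, 31.7 and 27.0 CPM in control and 45.4, 41.4, 32.7 and 32.0 CPM in cKO. Batches 3 and 6 carried most of its difference of 0.16 ± 0.06 (edgeR adjusted p = 0.070), and the gene is known to have processed pseudogenes that can share its reads. Apaf1, the scaffold of the apoptosome, differed by -0.037 ± 0.042. Diablo, which encodes the IAP antagonist SMAC, was at 50.2, 50.3, 53.3 and 55.0 CPM in control and 56.8, 56.1, 55.3 and 55.9 CPM in cKO. All cKO libraries lay just above all controls, yet the difference of 0.10 ± 0.04 did not pass (edgeR adjusted p = 0.086). Diablo exons overlap B3gnt4 on the opposite strand by 1326 bases and the model Gm49027 on its own strand by 1193 bases. Htra2, a mitochondrial protease that also binds IAPs, differed by -0.094 ± 0.050. Xiap, a direct inhibitor of initiator and executioner caspases, was at 104.5, 96.0, 103 and 105 CPM in control and 107, 106, 96.8 and 114 CPM in cKO. Batch 4 went against the others, and the difference was 0.050 ± 0.040 (edgeR adjusted p = 0.423). Birc2, an inhibitor and ubiquitin ligase at TNF receptors that lies 11.6 kb from Birc3, differed by 0.12 ± 0.06 (adjusted p = 0.145).

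Among the 5 tested members of death receptor signalling, the one call was a small fall. Tnfrsf1a, the main receptor for TNF (chromosome 6, 125349362 to 125362484, plus strand), was at 70.6, 56.7, 47.6 and 47.5 CPM in control and 63.7, 51.8, 45.4 and 42.3 CPM in cKO. Batch 1 was highest in both groups and every cKO library lay below its own control, with wide overlap between groups. Tnfrsf1a fell by 0.13 ± 0.04 on the log2 scale, to 91.5% of control (edgeR adjusted p = 0.0263). With any 1 batch left out the change was between -0.14 and -0.12 and did not pass (adjusted p from 0.060 to 0.101). Its adaptors gave no call: Fadd differed by 0.017 ± 0.058, Tradd by -0.079 ± 0.131 and Traf2, which recruits Birc2, by -0.12 ± 0.05 (adjusted p = 0.161).

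Of the late effectors, only Parp1 passed. Parp1 binds DNA breaks and is cut by executioner caspases (chromosome 1, 180568924 to 180601254, plus strand). Its level was 293, 358, 447 and 339 CPM in control and 258, 312, 384 and 282 CPM in cKO. Batch 4 was highest and batch 1 lowest in both groups, so the groups overlapped, but the gap within batches was even. The 4 batch differences ran from -0.27 to -0.18, and Parp1 fell by 0.22 ± 0.03 on the log2 scale, to 86.1% of control (edgeR adjusted p = 0.000729). Dffb, the nuclease that cuts DNA between nucleosomes, differed by 0.093 ± 0.076 and Dffa, its inhibitor, by -0.092 ± 0.044. Aifm1, a mitochondrial flavoprotein that can move to the nucleus, differed by -0.063 ± 0.038 and stood high in both libraries of batch 4 (61.6 CPM in control, 61.1 CPM in cKO), and the mitochondrial nuclease gene Endog by 0.047 ± 0.130. Aifm2, also called FSP1 and known for guarding against ferroptosis, gave -0.19 ± 0.16 with batch differences from -0.74 to 0.30.

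**Figure D3:**
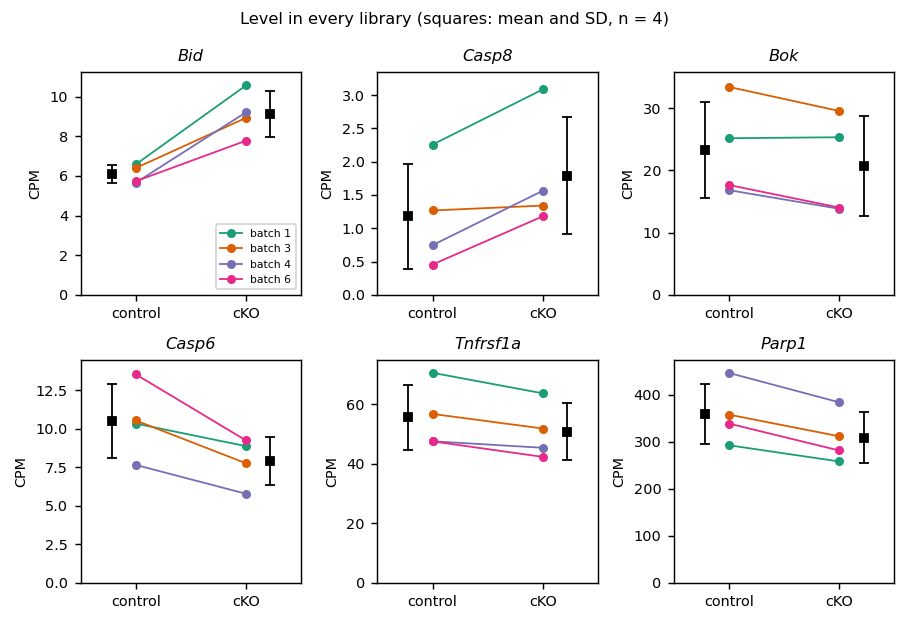
CPM in every library of the 6 members past the threshold, with control and cKO of a batch joined by a line and squares for the mean and SD of each group (n = 4). Bid separates the groups, from at most 6.59 to at least 7.78 CPM, whereas in Parp1, Casp6 and Tnfrsf1a all 4 lines fall but the groups overlap.

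Most members could be bounded closely. For 24 of 32 the 95% interval of the log2 fold change lay within 0.3 of 0, against 51.0% of all genes tested; the width of these intervals depends on the level, and the median level was 23.8 CPM for the members and 14.7 CPM for all genes. The 4 batch differences had the same sign in 17 of 32 members, of which 6 were higher and 11 lower, against 40.7% of all genes.

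Batch means of most members spread over more than the size of the cKO change. Their range over the 4 batches exceeded it for 30 of 32 members, with Bid and Diablo the exceptions (log2 of CPM + 0.5). That count was not made over all genes. A range over 4 batches and a mean difference are unlike measures. The median range was 0.45 for the members and 0.43 for all genes. Bmf had the widest, at 3.20, 4.13, 7.63 and 9.53 CPM as the mean of both libraries of batches 1, 3, 4 and 6. Casp8 followed, with 2.67 CPM in batch 1 and 0.816 CPM in batch 6. Apaf1 went opposite to Bmf, at 81.3 and 79.0 CPM in batches 1 and 3 and 43.9 and 44.1 CPM in batches 4 and 6. Bok (25.3 and 31.5 against 15.3 and 15.8 CPM) and Bcl2l11 (17.8 and 13.4 against 11.3 and 9.74 CPM) were likewise higher in batches 1 and 3. In 12 members both batches 1 and 3 lay above batches 4 and 6, and in 9 both lay below; such a split was seen in 58.5% of all genes. What the batches differ in is not given in the labels.

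**Figure D4:**
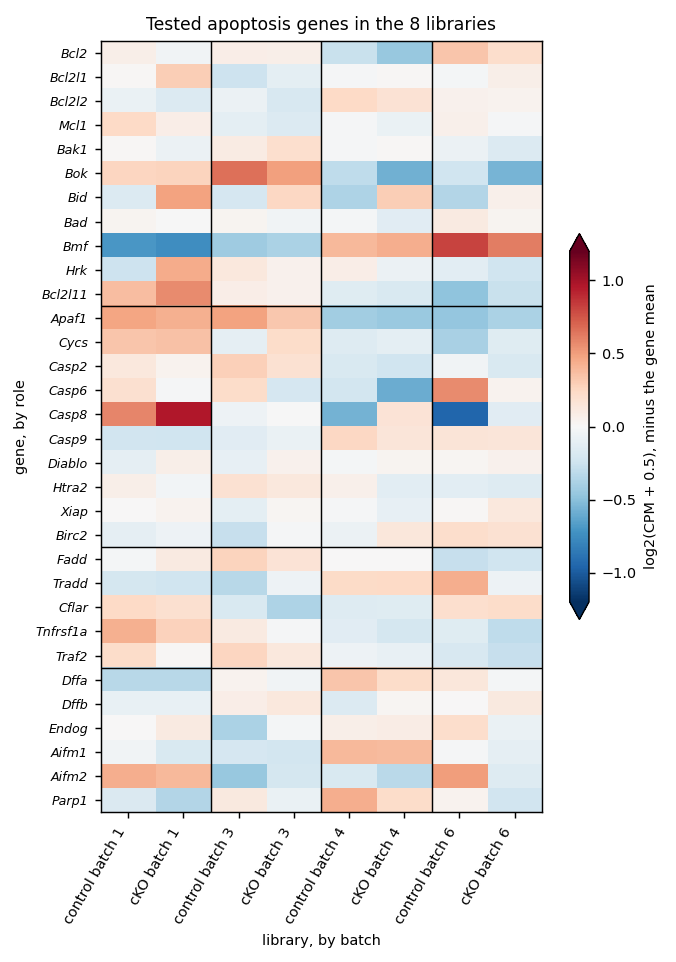
Deviation of log2(CPM + 0.5) from the mean of each tested member, with the 8 libraries ordered by batch. Control and cKO of a batch deviate to the same side in all 4 batches for Bmf, Apaf1 and Bok, while for Casp8 they lie on opposite sides in batch 4, and the deviations ran from -0.95 to 0.96.

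Other genes of the pathway were taken from lists assembled by function. Of 29 further apoptosis genes tested, 3 rose and 3 fell, with a median log2 fold change of -0.017. That is 20.7% past the threshold, near the 20.5% of all genes tested. Pmaip1, encoding the BH3-only protein NOXA that binds Mcl1, rose from 21.4 to 28.8 CPM (0.49 ± 0.07), with 43.3 CPM in control and 54.8 CPM in cKO of batch 1. Cradd, an adaptor of caspase-2, rose by 0.29 ± 0.09 and Vdac2, the outer membrane channel that holds Bak1, by 0.15 ± 0.03. Bcl2l12 (-0.55 ± 0.13), Acin1, a chromatin protein cut in apoptosis (-0.16 ± 0.03), and Bcl2l13 fell. Of 27 further death receptor genes, 3 rose and 2 fell (18.5%, also near that share), with a median of -0.036. Besides Fas, the neurotrophin receptor gene Ngfr (0.80 ± 0.21, from 0.668 to 1.16 CPM) and Tnfaip3, a brake on NF-kappaB (0.52 ± 0.13), rose. Ltbr, the lymphotoxin receptor (-0.21 ± 0.06), and Ikbkb, a kinase of the NF-kappaB route (-0.13 ± 0.04), fell.

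Of 28 genes that regulate BH3-only genes, 2 rose and 8 fell, with a median of -0.032. That is 35.7% past the threshold, where 20.5% of all genes passed in either direction and 10.4% were lower. The median level of this list was 54.9 CPM, against 14.7 CPM over all genes, and small changes are easier to call at higher levels. The part of level in this share was not tested. Mapk10 (0.30 ± 0.04) and Mapk8 (0.18 ± 0.05), both kinases of the JNK family, rose. Jun, a target of those kinases, fell (-0.18 ± 0.04), as did their activator Map2k7 (-0.14 ± 0.04). Trp53, which encodes p53, fell from 67.4 to 58.9 CPM (-0.19 ± 0.04). The forkhead factors Foxo1 (-0.19 ± 0.06) and Foxo4 (-0.18 ± 0.04), the stress factor Atf4 (-0.11 ± 0.03), Myc (-0.28 ± 0.05) and the survival kinase Akt1 (-0.14 ± 0.03) also fell. Without batch 1, 3 or 4, the list gave 5, 4 and 4 calls in place of 10. The further apoptosis genes gave 3 calls in each of these fits in place of 6, and the death receptor genes 3, 2 and 1, and 3 without batch 6, in place of 5. Without the block, 0 genes of the 3 lists passed in edgeR or DESeq2, and in edgeR 1 of 29, 0 of 27 and 2 of 28 lay under an unadjusted p of 0.05.

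**Figure D5:**
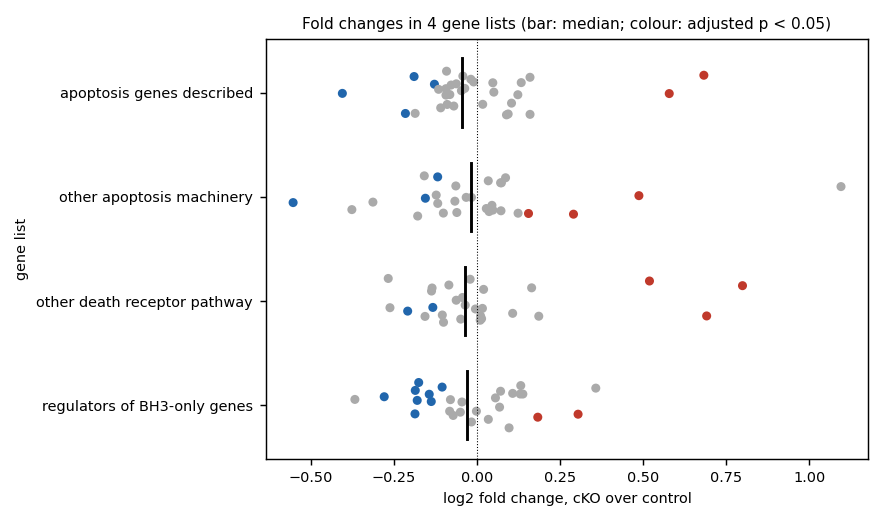
Log2 fold change of cKO over control for each tested gene of 4 lists (points; vertical place within a list is random), with the list median as a bar and genes past the adjusted p of 0.05 in red (higher) or blue (lower). The medians, from -0.045 to -0.017, lie close to 0 in all 4 lists.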

How the data were processed

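Polyadenylated RNA of 8 libraries was counted per gene. The submitters' processing notes name mm10, cutadapt, STAR, Partek and DESeq2, without versions; annotation and strand handling were not given in the sources used here. What the authors deposited are estimated counts per gene, not normalized, made with these tools per the submitters' processing notes; of them 51.6% are not whole, so reads may have been divided among genes. All genes listed have a total of at least 10. Counts were rounded, filtered with filterByExpr (minimum count 10; 18102 of 24155 genes kept), scaled by TMM and tested with edgeR 4.0.16 (robust glmQLFit and glmQLFTest, 2-sided, batch as block, Benjamini-Hochberg over all genes, threshold 0.05) in R 4.3.3. SEs come from the F statistic. Totals of 43542742 or more per library mean that the spread between libraries, not counting, limits all but the lowest genes.

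The numbers pair the samples, because the labels name 1 control and 1 cKO library per batch; deviations from group means correlated at 0.75 to 0.79 within a number and at most 0.39 otherwise. All 12 pairs within groups differed beyond sampling noise (chi-square per degree of freedom 54.2 to 252.6). Exon lengths are unions from GENCODE M21, whose start and end matched the table for 34 of 34 members once the last base was counted; promoters are from RefSeq. Tested on simulated data, the fit with the block made a larger share of false calls than its threshold allows, so calls near the threshold are less certain.

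Members and lists were chosen with earlier results of these data known. Library values are given for members past the threshold (or at an unadjusted p under 0.05 without the block), those with an unadjusted p under 0.05 and 1 direction in 4 pairs, and the most abundant member of each role; related genes are named where they passed. The member of the death receptor group with no row was left out. Alternatives were other scaling, filters, DESeq2 1.42.0, limma-voom 3.58.1, no block and left-out batches; DESeq2 without the block and the fit without a ribosomal RNA gene were chosen after seeing the data.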

Additional observations from a re-analysis of the deposited data

Results flagged for a closer look

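Among 68 groups of 4 libraries checked (34 members in control and in cKO), 2 held a library far from the other 3, and chance flags about 1 in 20 groups. Bcl2l1 was at 35.1 CPM in control batch 3, below the 41.1 to 42.3 CPM of the other control libraries. Aifm1 was at 61.1 CPM in cKO batch 4, above the 40.3 to 43.5 CPM of the other cKO libraries; its control library of that batch was at 61.6 CPM.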

How the results depend on the processing

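Without the replicate block (group alone), edgeR called 3 genes (1 higher, 2 lower) instead of 3706, with 893 under an unadjusted p of 0.05, and 0 members and 0 genes of the 3 related lists. Leaving out 1 library at a time in that fit gave 1 to 5 genes (0 to 3 higher, 1 to 2 lower) and 0 members. DESeq2 without the block called 191 genes (157 higher, 34 lower), 1 member (1 higher, 0 lower) and 0 genes of each related list. DESeq2 with the replicate block called 4 members (Bid higher, and Casp6, Tnfrsf1a and Parp1 lower) and 2 death receptor genes. Leaving out 1 batch at a time gave 2102 to 3432 genes (1127 to 1702 higher, 910 to 1730 lower) and 3 to 4 members (1 to 2 higher, 2 to 3 lower). The further apoptosis genes then gave 3 to 7 calls, the death receptor genes 1 to 3 and the regulators 4 to 8. Fewer samples enter these fits. Upper-quartile scaling called 2021 genes higher and 1553 lower.

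Signs turned only in members far from the threshold. Bak1 was 0.0032 with upper-quartile factors. Leaving out 1 batch at a time gave ranges across 0 for Bak1 (-0.047 without replicate 3, 0.014 without replicate 1, 0.017 without replicate 6), Hrk (-0.20 without replicate 1, 0.32 without replicate 4), Fadd (-0.024 without replicate 1, 0.062 without replicate 3) and Apaf1 (0.0090 without replicate 3, -0.077 without replicate 6). The same held for Endog (-0.062 without replicate 3, 0.18 without replicate 6), Casp9 (0.024 without replicate 4, -0.040 without replicate 3), Bmf (0.021 without replicate 6, -0.068 without replicate 3), Tradd (0.091 without replicate 6, -0.19 without replicate 3) and Aifm2 (0.019 without replicate 6, -0.32 without replicate 3). The cause was not tested. Depth limits Hrk, Bik and Birc3.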
